A study of Mus musculus with 20 samples.

Results

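The genes described here sense DNA damage, halt the cell cycle in response to it or repair it. They were taken by symbol from a table of read counts of the mouse aorta: 42 symbols were listed, from damage kinases to base excision and mismatch repair, and a symbol was kept where its counts averaged 5 or more in the 20 mice. Of 21078 genes in the table, 13124 reached that mean, and 39 of these are listed repair genes. Brca1, Fanca and Fanci, with mean counts of 2.25, 1.5 and 1.9, fell below it and were not tested. Palb2, with 6.25, was the member nearest to the minimum. The rule itself uses the symbol and the mean count, and the minimum was met on the mean over both radiation types and all doses. The symbols, and the related genes given last, were nonetheless chosen with earlier results of these data known. Every share below that is set against all genes tested carries this limit.

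The aortas came from 20 wildtype adult male C57BL/6 mice aged 10 to 12 weeks. Of these, 10 mice were given protons and 10 were given gamma rays, as 1 whole-body exposure, on the same day. Each type had 1 mouse at each of 10 doses, 0, 5, 10, 25, 50, 75, 100, 125, 150 and 200 cGy, and RNA was taken 4 h later. The mice at 0 cGy were a separate animal for each type. There were no replicate mice at a dose, so the response to dose was read from the trend over 10 mice, and the error is the scatter of single mice around it.

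A double-strand break is recognised by the Mre11a, Rad50 and Nbn complex, which brings in the kinase Atm, while Atr answers to single-stranded DNA. The break is then joined end to end, by the Ku proteins, Prkdc and ligase IV, or copied from the sister chromatid by homologous recombination, for which the cell has to be dividing. Single-strand breaks and damaged bases are handled by the Parp, Xrcc1 and base excision proteins. Much of this system is set in motion by modifying proteins that are already present, so a steady transcript says nothing of the activity of its protein.

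Every mouse had between 6051657 and 6058006 counts. As a check of exposure, Cdkn1a, the p53-driven cell cycle inhibitor, had 345 counts at 0 and 2777 at 200 cGy of protons and 366 and 2937 with gamma rays, and Mdm2, the ligase that degrades p53, had 376 and 686, and 332 and 579. Smooth muscle markers summed to 39350 to 53570 CPM (counts scaled to the same library total) in 19 mice, endothelial markers to 369 to 1286 CPM in all 20, and 8 lymphocyte markers summed to at most 9.91 CPM in any mouse. The proton mouse at 75 cGy stood apart. Its heart and skeletal muscle markers summed to 2059 CPM, against 18.2 to 53.5 in the other 19. That sum came from Myh6, Tnnt2, Nppa and Ckm, with 6721, 3013, 2312 and 404 counts. The skeletal muscle markers Acta1, Mylpf and Myh4 had 11, 1 and 0. Its brown fat markers summed to 2593 against 160 to 999, its white fat markers to 2707 against 199 to 1079, and its smooth muscle markers to 26480. The 4 mice at 150 and 200 cGy differed from the rest in another way. The correlation across genes between a gene's deviation from its mean and its transcript GC content was between -0.401 and -0.349 in these 4 libraries and between -0.018 and 0.284 in the other 16. No source gives a preparation or sequencing batch, so a library difference and the highest doses cannot be told apart. Each result below that passed its test and rests on these mice is therefore given again under at least 1 other setting. The settings were a correction for GC content and transcript length, 0 to 125 cGy alone, or leaving out both mice at 75 cGy.

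Slopes are the change of log2 count per 100 cGy, fitted by edgeR's quasi-likelihood test on all 20 mice with a slope for each radiation type. A gene was called at an adjusted p of at most 0.1 over all 13124 genes. In bulk RNA of the aorta, fewer cells of a type and less RNA per cell cannot be told apart. After gamma radiation 8 of the 39 genes rose with dose, which is 20.5% of them, against 5.44% of all genes tested. They were Atm, Rad50, Trp53bp1, Prkdc, Dclre1c, Fancm, Rev3l and Ercc4. Parp1 and Parp2 fell, 5.13% against 2.21% of all genes. After proton radiation Atm and Msh6 rose, 5.13% against 1.6%, and 0 fell, where 0.16% of all genes did. By edgeR, and by DESeq2, 2 of the 39 had a proton slope below 0 at an unadjusted p under 0.05, against 3.52% of all genes by edgeR. The median slope of the 39 genes was 0.11 with protons and 0.14 with gamma rays, and that of all genes tested was 0.00 and 0.01. Slopes were above 0 in both types in 24 of the 39 genes (61.5%, against 36.7% of all genes tested). They were below 0 in both types in 8 (20.5%), namely Chek1, Chek2, Xrcc4, Parp1, Parp2, Xrcc1, Polb and Ercc1. The share of all genes below 0 in both was not computed. Taken by type, 64.1% of the 39 slopes were above 0 with protons and 76.9% with gamma rays, against 50.6% and 53.4% of all genes.

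**Figure D1:**
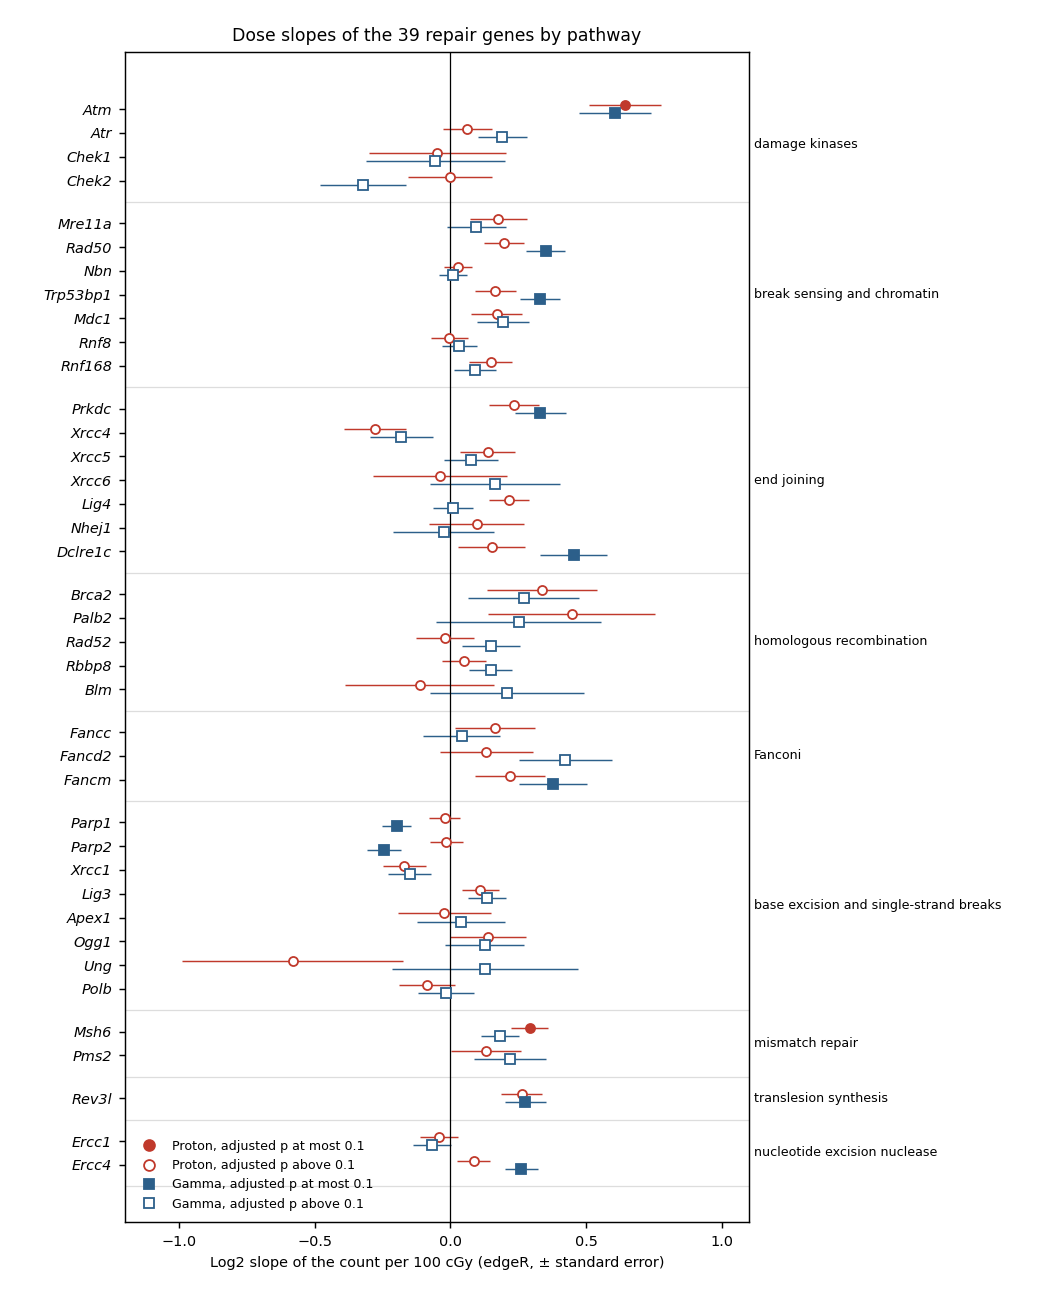
Log2 slope of the count per 100 cGy (x axis) of each of the 39 genes, grouped by pathway, for protons (circles) and gamma rays (squares), with the standard error as a line and filled symbols for an adjusted p of at most 0.1. Atm has the largest slope among the called genes in both types (0.64 and 0.61), and Parp1 and Parp2 are the filled squares to the left of 0.

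These numbers changed with the GC and length correction and with the range of doses. The lower range also holds fewer mice, and the cause of the changes was not tested. With the correction for GC content and length, Atm alone rose with protons (0.739% of all genes) and 0 genes fell (0.0305%), while Atm and Rad50 rose with gamma rays (2.26%) and Parp2 fell (0.785%). Over 0 to 125 cGy none of the 39 genes passed in either direction with edgeR, and of all genes 0.0991% rose and 0.00762% fell with protons, and 0.221% rose and 0.0381% fell with gamma rays. In that range 5 of the 39 genes had a slope above 0 with protons and 2 with gamma rays at an unadjusted p under 0.05, against 2.76% and 2.6% of all genes. A slope below 0 at that p was found in 0 and 2, against 1.81% and 3.36%. Without both mice at 75 cGy, the same 8 genes rose and the same 2 fell with gamma rays (6.64% and 4.37% of all genes). With protons Rev3l joined Atm and Msh6 (2.38%), and 0 fell (0.488%).

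**Figure D2:**
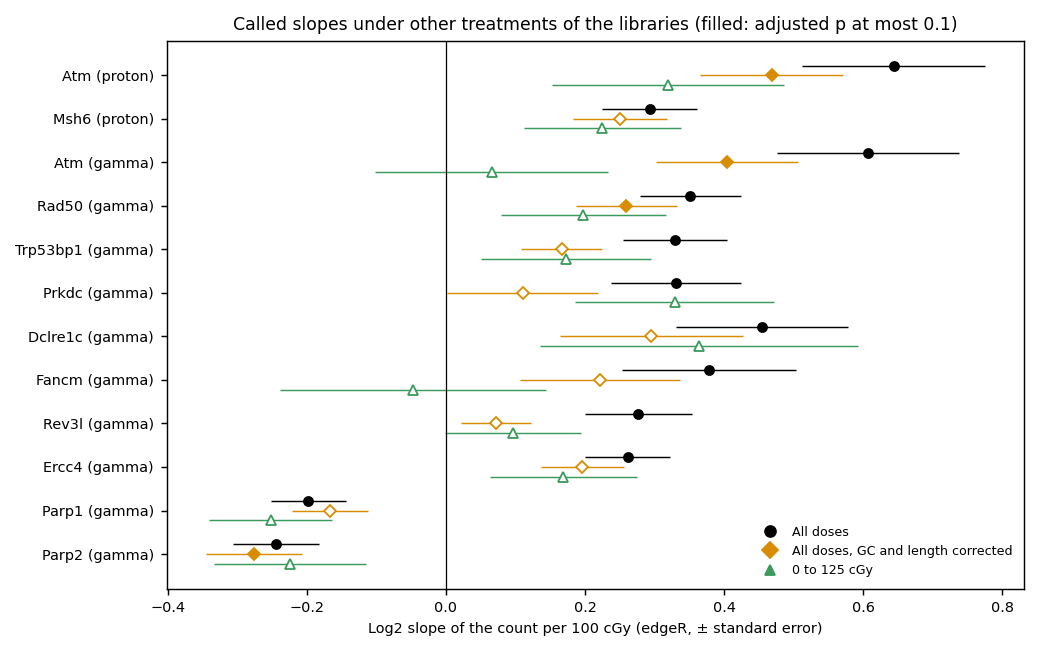
Log2 slope per 100 cGy with its standard error for the 12 called slopes, over all doses (black circles), over all doses with the GC and length correction (orange diamonds) and over 0 to 125 cGy (green triangles), filled where the adjusted p was at most 0.1. Filled diamonds remain for Atm in both types and for Rad50 and Parp2 with gamma rays, no triangle is filled, and the triangle of Fancm lies at -0.05.

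Promoter sequences are shown for Atm and Msh6, which rose with protons, Trp53bp1, whose gamma counts kept closest to the order of the doses, and Parp2, which fell with gamma rays. They are RefSeq sequences of GRCm38.p6, from 250 bases before to 50 bases after the annotated start, written along the strand of the gene. The Atm promoter is chr9:53536622-53536921, that of Msh6 chr17:87974800-87975099, that of Trp53bp1 chr2:121271358-121271657 and that of Parp2 chr14:50807666-50807965, with Atm and Trp53bp1 on the minus strand. Capitals mark matches, on either strand, to the CCAAT box, to the E2F-type motif TTTNNCGC and to the cyclic AMP element TGACGT.
Atm: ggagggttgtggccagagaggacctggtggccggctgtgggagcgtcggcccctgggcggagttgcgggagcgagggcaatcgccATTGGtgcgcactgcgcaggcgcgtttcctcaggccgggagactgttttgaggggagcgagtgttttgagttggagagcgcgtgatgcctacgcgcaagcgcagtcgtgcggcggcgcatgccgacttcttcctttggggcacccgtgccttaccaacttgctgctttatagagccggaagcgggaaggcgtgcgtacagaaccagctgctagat
Msh6: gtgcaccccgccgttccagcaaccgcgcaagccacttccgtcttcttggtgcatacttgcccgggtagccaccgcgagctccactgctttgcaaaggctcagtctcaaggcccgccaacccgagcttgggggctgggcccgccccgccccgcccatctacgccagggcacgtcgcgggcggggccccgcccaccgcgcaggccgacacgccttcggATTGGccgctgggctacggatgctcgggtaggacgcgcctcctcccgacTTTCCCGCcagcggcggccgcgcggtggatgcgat
Trp53bp1: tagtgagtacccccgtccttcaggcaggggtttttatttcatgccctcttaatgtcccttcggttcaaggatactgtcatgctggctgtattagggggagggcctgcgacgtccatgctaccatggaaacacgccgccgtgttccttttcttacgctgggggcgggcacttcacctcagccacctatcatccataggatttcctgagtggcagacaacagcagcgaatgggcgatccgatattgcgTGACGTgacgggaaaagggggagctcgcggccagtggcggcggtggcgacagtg
Parp2: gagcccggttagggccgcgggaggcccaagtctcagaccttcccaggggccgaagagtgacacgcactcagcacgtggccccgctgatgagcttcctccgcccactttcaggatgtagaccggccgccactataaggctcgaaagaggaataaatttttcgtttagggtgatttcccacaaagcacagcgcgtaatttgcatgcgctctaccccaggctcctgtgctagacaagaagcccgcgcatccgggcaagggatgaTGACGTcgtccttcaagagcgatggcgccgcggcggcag
The capitals of Atm and Msh6 include a reversed CCAAT box that begins 165 and 34 bases before the start. Msh6 also has an E2F-type match beginning at base 16 after it, and the capitals of Trp53bp1 and Parp2 are the cyclic AMP element, 4 bases before and at base 12 after the start. Of the 39 genes, 32 had an entry in the table. A CCAAT box was in 18 of the 32 (56.2%, against 37.9% of 27025 mouse promoters), an E2F-type motif in 5 (15.6%, against 5.27%) and a cyclic AMP element in 6 (18.8%, against 7.64%). The GC box GGGCGG, which is not in capitals, was in 24 (75%, against 35.9%). The p53 consensus decamer was in 0 of the 32, which allows a share of up to 9.38%, against 8.37% of these 27025 promoters. The 27025 promoters were not limited to genes tested in the aorta, as the 32 were. The shares among tested genes were not computed, so these differences are not shown to be particular to repair genes. The motif counts describe letters in a window of 300 bases and say nothing of binding.

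Among the damage kinases, Atm rose with both radiation types, and Atr, Chek1 and Chek2 did not pass in either. Atm, the kinase that answers to double-strand breaks (ENSMUSG00000034218, mm9 chromosome 9, 53247254 to 53344845), had 30 to 88 counts in the proton mice (median 41) and 30 to 80 in the gamma mice (median 37). From 0 to 125 cGy no mouse had more than 51 counts. At 150 and 200 cGy there were 71 and 88 counts with protons and 80 and 80 with gamma rays. The mice at the highest doses thus did not overlap the rest. How many of all genes part at this cut was not counted, here or for Rad50, Mdc1, Fancm and Rev3l below. The Atm slope was 0.64 ± 0.13 (SE) with protons (edgeR adjusted p = 0.0304), a rise of 1.56-fold per 100 cGy. With gamma rays it was 0.61 ± 0.13 (edgeR adjusted p = 0.0183), a rise of 1.52-fold. With the GC and length correction it was 0.47 and 0.40, still past the threshold (edgeR adjusted p = 0.0495 and 0.0529). Over 0 to 125 cGy it was 0.32 ± 0.17 and 0.07 ± 0.17 (edgeR unadjusted p = 0.0738 and 0.722). Without the proton mouse at 200 or 150 cGy the proton slope was 0.54 or 0.60 and no longer passed (edgeR adjusted p = 0.690 and 0.126), and without the gamma mouse at 200 cGy the gamma slope was 0.52 (0.246).

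The other kinases moved less. Atr had 103 to 141 counts with protons and 90 to 185 with gamma rays, and its slopes were 0.06 ± 0.09 and 0.19 ± 0.09 (edgeR adjusted p = 0.861 and 0.262). Chek2, which Atm activates, had 20 to 39 counts with protons and 18 to 40 with gamma rays, where the mouse at 0 cGy was the highest. Its gamma slope was -0.32 ± 0.16 (edgeR adjusted p = 0.293). Chek1, which Atr activates and which dividing cells use, had 3 to 12 counts in any mouse, and its slopes of -0.05 ± 0.25 and -0.06 ± 0.26 leave a moderate change in either direction undetectable at this depth.

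**Figure D3:**
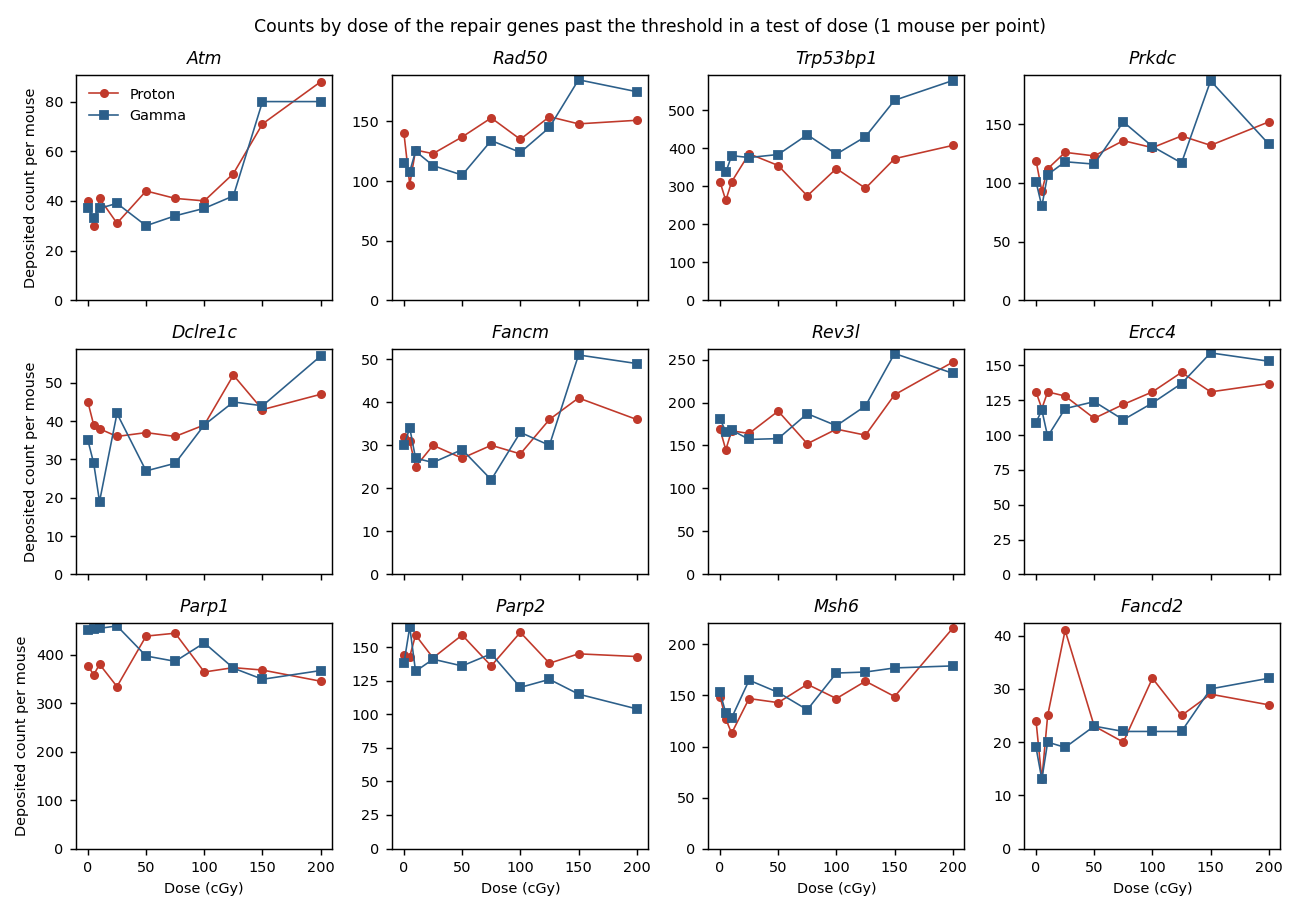
Deposited count per mouse (y axis, from 0) against dose in cGy for the 12 genes past the threshold in an edgeR slope or in the rank test, with 1 mouse per point, protons as red circles and gamma rays as blue squares. Atm is at 30 to 51 counts up to 125 cGy and at 71 to 88 at 150 and 200 cGy, and the gamma counts of Parp2 go down to 104 at 200 cGy.

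Of the 7 genes that sense breaks and mark the chromatin around them, Rad50 and Trp53bp1 rose with gamma rays and none passed with protons, where 6 of 7 slopes were above 0. Rad50, the ATPase that holds broken ends together (ENSMUSG00000020380, chromosome 11, 53463021 to 53520821), had 105 to 185 counts in the gamma mice (median 124.5) and 97 to 154 in the proton mice (median 138.5). The gamma mice at 150 and 200 cGy, with 185 and 175, were above all others of that type, the next being 145. Its slope was 0.35 ± 0.07 with gamma rays (edgeR adjusted p = 0.0152) and 0.20 ± 0.07 with protons (edgeR adjusted p = 0.240). The gamma slope was 0.26 with the GC and length correction (edgeR adjusted p = 0.0827), 0.20 ± 0.12 over 0 to 125 cGy, and 0.36 without the mouse at 200 cGy, where it no longer passed (edgeR adjusted p = 0.162).

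Trp53bp1, which binds modified chromatin at breaks and favours end joining (ENSMUSG00000043909, chromosome 2, 121019017 to 121097143), had 337 to 579 counts with gamma rays (median 384.5) and 263 to 408 with protons (median 329.5). Its gamma counts had a Spearman rho of 0.939 with dose (exact two-sided permutation test over all orders of 10 doses, adjusted p = 0.0419). With counts first scaled by TMM factors rho was 0.867 and did not pass (exact permutation test, adjusted p = 0.102). Over 0 to 125 cGy rho was 0.881 and did not pass either (exact permutation test, adjusted p = 0.374). The slope was 0.33 ± 0.07 with gamma rays (edgeR adjusted p = 0.0232) and 0.17 ± 0.08 with protons (edgeR adjusted p = 0.350). The gamma slope was 0.17 with the GC and length correction (edgeR adjusted p = 0.176), 0.17 ± 0.12 over 0 to 125 cGy, and 0.28 without the mouse at 200 cGy (edgeR adjusted p = 0.272).

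The other 5 genes of this group did not pass in either type. Nbn, the partner of Rad50 that binds Atm, was the steadiest, with 226 to 284 counts over all 20 mice and slopes of 0.03 ± 0.05 and 0.01 ± 0.05. Mre11a, the nuclease of the same complex, had 64 to 115 counts and slopes of 0.18 and 0.10. Mdc1, the scaffold that reads the phosphorylated histone, had 164 to 226 counts up to 125 cGy and 248 to 285 at 150 and 200 cGy in both types. Its slopes were 0.17 ± 0.09 and 0.19 ± 0.09 over all doses (edgeR adjusted p = 0.471 and 0.281) and -0.16 and -0.20 over 0 to 125 cGy. The ubiquitin ligases Rnf8 and Rnf168 had slopes between -0.00 and 0.15. Exons of Rnf8 are shared on the same strand with Ftsjd2, so reads of the overlap could belong to either.

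In end joining, Prkdc and Dclre1c rose with gamma rays and 0 of 7 genes passed with protons. Prkdc, the kinase that binds Ku at the broken end (ENSMUSG00000022672, chromosome 16, 15637959 to 15842332), had 80 to 187 counts with gamma rays (median 117.5) and 93 to 152 with protons (median 128). The gamma mouse at 150 cGy was the highest, and that at 200 cGy, with 133, was below the mouse at 75 cGy, with 152. Its slopes were 0.33 ± 0.09 with gamma rays (edgeR adjusted p = 0.0542) and 0.23 ± 0.09 with protons (edgeR adjusted p = 0.252). The gamma slope over 0 to 125 cGy was 0.33 ± 0.14 (edgeR unadjusted p = 0.0362), and with the GC and length correction over all doses it was 0.11 (edgeR adjusted p = 0.772). It no longer passed without the gamma mouse at 0, 5 or 150 cGy, where it was 0.31, 0.26 and 0.23 (edgeR adjusted p = 0.115, 0.165 and 0.273).

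Dclre1c, or Artemis, the nuclease that opens and trims ends for joining (ENSMUSG00000026648, chromosome 2, 3341403 to 3381402), had 19 to 57 counts with gamma rays (median 37) and 36 to 52 with protons (median 39). The lowest gamma count was at 10 cGy and the highest at 200 cGy. Its gamma slope was 0.45 ± 0.12 (edgeR adjusted p = 0.0486), and its proton slope was 0.15 ± 0.12 (edgeR adjusted p = 0.680). The gamma slope was 0.30 with the GC and length correction (edgeR adjusted p = 0.315) and 0.36 ± 0.23 over 0 to 125 cGy. Without the gamma mouse at 150 or 200 cGy it was 0.47 or 0.38 (edgeR adjusted p = 0.128 and 0.393).

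Lig4, the ligase that seals the joined ends, had 62 to 101 counts with protons (median 80) and 66 to 83 with gamma rays (median 76). Its proton slope of 0.22 ± 0.07 was the one with the smallest p of this group (edgeR adjusted p = 0.185), and its gamma slope was 0.01 ± 0.07. Its partner Xrcc4 had 58 to 106 counts with protons and 53 to 96 with gamma rays, and slopes of -0.28 ± 0.12 and -0.18 ± 0.12 (edgeR adjusted p = 0.292 and 0.467). Nhej1, which aligns the ends with Xrcc4, had 7 to 21 counts and slopes of 0.10 and -0.02.

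The Ku subunits, Xrcc5 and Xrcc6, form 1 ring around the broken end and had unlike spreads. Xrcc5 had 81 to 169 counts with protons and 103 to 145 with gamma rays, and slopes of 0.14 and 0.08. Xrcc6 had 548 counts in the proton mouse at 75 cGy against 146 to 237 in the other proton mice, and 306 in the gamma mouse at 100 cGy against 150 to 216. In these 2 mice brown fat markers summed to 2593 and 999 CPM and white fat markers to 2707 and 1079, the highest of their types. Smooth muscle markers, at 26480 and 39350 CPM, were the lowest of their types. The part of the tissue mix in the Xrcc6 count was not tested. The Xrcc6 slopes were -0.04 ± 0.25 and 0.16 ± 0.24.

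Homologous recombination and the Fanconi pathway were the groups with the lowest median level per kb of transcript, 2.16 and 4.36 counts. The sum of 12 markers of dividing cells was 64.8 to 115 CPM in the proton mice and 80.9 to 116 in the gamma mice. Most of that sum was Mcm6, with a mean count of 504, while none of the others exceeded a mean of 21.2. Mki67 had 5 to 42 counts and Top2a 2 to 30 over all mice, and 3 of the 12 markers had mean counts under 5. None of the 5 recombination genes passed in either type. Brca2, a mediator of strand exchange in recombination, had 8 to 26 counts with protons (median 16.5) and 8 to 16 with gamma rays (median 11.5), and slopes of 0.34 ± 0.20 and 0.27 ± 0.20 (edgeR adjusted p = 0.519 and 0.557). Rbbp8, or CtIP, which starts the resection of ends, had 54 to 70 counts with protons (median 62) and 52 to 79 with gamma rays (median 65). Its slopes were 0.05 ± 0.08 and 0.15 ± 0.08 (edgeR adjusted p = 0.893 and 0.374). Palb2, the partner of Brca2, had 2 to 10 counts and slopes of 0.45 ± 0.31 and 0.25 ± 0.30, and the helicase Blm had 4 to 21 counts and slopes of -0.11 ± 0.27 and 0.21 ± 0.28. Rad52, which anneals single strands, had 62 to 107 counts and slopes of -0.02 and 0.15.

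Of the Fanconi genes, Fancm rose with gamma rays by the edgeR slope and Fancd2 by the rank test. Fancm, the translocase that brings the Fanconi complex to blocked forks (ENSMUSG00000055884, chromosome 12, 66176593 to 66233045), had 22 to 51 counts with gamma rays (median 30) and 25 to 41 with protons (median 30.5). The gamma mice at 150 and 200 cGy had 51 and 49, above the 34 that was highest in the rest. Its gamma slope of 0.38 ± 0.13 was just inside the threshold (edgeR adjusted p = 0.0971), and its proton slope was 0.22 ± 0.13 (edgeR adjusted p = 0.502). The gamma slope turned to -0.05 ± 0.19 over 0 to 125 cGy. It held its call without 7 of the 20 mice and lost it without any of the others, with slopes between 0.29 and 0.45. Without the gamma mouse at 200 or 150 cGy it was 0.30 or 0.29 (edgeR adjusted p = 0.521 and 0.340).

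Fancd2, the protein whose ubiquitin mark switches the pathway on (ENSMUSG00000034023, chromosome 6, 113481676 to 113547011), had 13 to 32 counts with gamma rays (median 22) and 13 to 41 with protons (median 25). The lowest mouse was at 5 cGy in both types, and the highest was at 200 cGy with gamma rays and at 25 cGy with protons. Its gamma rho was 0.874 (exact two-sided permutation test, adjusted p = 0.0931), and its gamma slope was 0.42 ± 0.17 (edgeR adjusted p = 0.172). That rho was 0.855 with TMM-scaled counts and 0.891 without both mice at 75 cGy, and passed in neither (exact permutation test, adjusted p = 0.111 and 0.137). Over 0 to 125 cGy rho was 0.749 (exact permutation test, adjusted p = 0.532). In the rank test 5.13% of the 39 genes rose with gamma rays, against 1.17% of all genes, and 0 fell, against 0.625%, with 3 at an unadjusted p under 0.05. With protons 0 rose and 0 fell, against 0.0838% and 0% of all genes, and 5 had a rho above 0 and 1 below 0 at an unadjusted p under 0.05, which 6.67% of all genes met in either direction. Fancc, of the core complex, had 46 to 106 counts and slopes of 0.16 and 0.04.

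Base excision and single-strand break repair was the group with genes that fell. Of its 8 genes, Parp1 and Parp2 fell with gamma rays and 0 passed with protons, where 2 of 8 slopes were above 0. Parp1, which binds strand breaks and makes poly(ADP-ribose) there (ENSMUSG00000026496, chromosome 1, 182499086 to 182531384), had 349 to 459 counts with gamma rays (median 410.5) and 334 to 444 with protons (median 370.5). The gamma mice from 0 to 25 cGy had 451 to 459 counts, those from 50 to 100 cGy 386 to 424, and those from 125 cGy 349 to 372. The gamma slope was -0.20 ± 0.05 (edgeR adjusted p = 0.0503), and the proton slope was -0.02 ± 0.06 (edgeR adjusted p = 0.941). Over 0 to 125 cGy the gamma slope was -0.25 ± 0.09 (edgeR unadjusted p = 0.0124), and with the GC and length correction it was -0.17 (edgeR adjusted p = 0.141). Without the gamma mouse at 200 or 150 cGy it was -0.26 or -0.18 (edgeR adjusted p = 0.153 and 0.193).

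Parp2, the smaller enzyme of the same activity (ENSMUSG00000036023, chromosome 14, 51427621 to 51440975), had 104 to 165 counts with gamma rays (median 134) and 136 to 161 with protons (median 143.5). The gamma mice from 100 cGy on had 104 to 126 counts and those up to 75 cGy 132 to 165. The dose cuts used here and for Parp1 and Ercc4 were chosen from the counts. How many of all genes part at some cut was not counted. Its gamma slope was -0.24 ± 0.06 (edgeR adjusted p = 0.0359), and its proton slope was -0.01 ± 0.06 (edgeR adjusted p = 0.970). It was the gene of this group that kept its call with the GC and length correction, at -0.28 (edgeR adjusted p = 0.0498), and over 0 to 125 cGy the slope was -0.22 ± 0.11 (edgeR unadjusted p = 0.0573). Without the gamma mouse at 200 or 150 cGy it was -0.24 in each case (edgeR adjusted p = 0.257 and 0.128).

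The other 6 genes of base excision did not pass. Xrcc1, the scaffold that Parp1 recruits, had 123 to 188 counts with protons (median 157) and 125 to 202 with gamma rays (median 164.5), and slopes of -0.17 ± 0.08 and -0.15 ± 0.08 (edgeR adjusted p = 0.362 and 0.338). Those slopes came to -0.04 and -0.00 with the GC and length correction, and Xrcc1 has the most GC-rich transcript of the 39, at 59.3%. Lig3, the ligase bound to Xrcc1, had 132 to 196 counts and slopes of 0.11 and 0.14. The glycosylase Ogg1, which removes oxidised guanine, had 40 to 92 counts and slopes of 0.14 and 0.13, the abasic site nuclease Apex1 55 to 144 counts and slopes of -0.02 and 0.04, and the polymerase Polb 82 to 144 counts and slopes of -0.09 and -0.02. Ung, which removes uracil, had 1 to 19 counts and the lowest proton slope of the 39, -0.58 ± 0.41 (edgeR adjusted p = 0.606).

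Msh6, a subunit of the complex that finds mismatches (ENSMUSG00000005370, chromosome 17, 88374390 to 88390223), was the gene other than Atm that rose with protons. It had 113 to 216 counts in the proton mice (median 148) and 128 to 179 in the gamma mice (median 159). The proton mouse at 200 cGy, with 216, was above the other 9, of which the highest had 164. Its slopes were 0.29 ± 0.07 with protons (edgeR adjusted p = 0.0555) and 0.18 ± 0.07 with gamma rays (edgeR adjusted p = 0.148). The proton slope was 0.25 with the GC and length correction (edgeR adjusted p = 0.144), 0.22 ± 0.11 over 0 to 125 cGy, and 0.17 without the mouse at 200 cGy (edgeR adjusted p = 0.876). Without the mouse at 5 or 10 cGy it was 0.28 or 0.25 (edgeR adjusted p = 0.109 and 0.128). Pms2, the nuclease of the same pathway, had 44 to 97 counts and slopes of 0.13 and 0.22 that did not pass, and it shares exon sequence on its strand with Rsph10b2.

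Rev3l, the catalytic subunit of the translesion polymerase zeta (ENSMUSG00000019841, chromosome 10, 39451924 to 39595017), rose with gamma rays. It had 157 to 257 counts with gamma rays (median 177) and 145 to 247 with protons (median 168). In both types the mice at 150 and 200 cGy, with 209 to 257 counts, were above all others, which had at most 196. The slopes were 0.28 ± 0.08 (edgeR adjusted p = 0.0511) and 0.26 ± 0.08 (edgeR adjusted p = 0.114), 0.07 and 0.08 with the GC and length correction, and 0.10 and 0.00 over 0 to 125 cGy. Without both mice at 75 cGy the proton slope passed (edgeR adjusted p = 0.0990). The gamma slope no longer passed without the gamma mouse at 25, 150 or 200 cGy, where it was 0.25, 0.22 and 0.28 (edgeR adjusted p = 0.1004, 0.222 and 0.287).

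Ercc4, or Xpf, the nuclease that cuts out lesions and crosslinks together with Ercc1 (ENSMUSG00000022545, chromosome 16, 13109777 to 13150710), rose with gamma rays while Ercc1 did not pass. Ercc4 had 99 to 159 counts with gamma rays (median 121) and 112 to 145 with protons (median 131). The gamma mice at 125, 150 and 200 cGy had 137, 159 and 153, above the 124 that was highest in the rest. Its slopes were 0.26 ± 0.06 with gamma rays (edgeR adjusted p = 0.0262) and 0.09 ± 0.06 with protons (edgeR adjusted p = 0.617). The gamma slope was 0.20 with the GC and length correction (edgeR adjusted p = 0.109), 0.17 ± 0.11 over 0 to 125 cGy, and 0.23 or 0.27 without the mouse at 150 or 200 cGy (edgeR adjusted p = 0.122 and 0.199). Ercc1 had 129 to 177 counts over all mice and slopes of -0.04 ± 0.07 and -0.07 ± 0.07.

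The slopes of the 39 genes went with the length of their transcripts. Their longest protein-coding transcripts had a median of 4357 bases, against 3062 over all genes tested, and a median GC content of 46.7%, against 50.4%. Across the 39 genes, which share the same 20 libraries, the Spearman correlation of slope with transcript length was 0.626 with protons and 0.716 with gamma rays. Over 12581 tested genes it was 0.245 and 0.228. It was 0.256 and 0.336 among the 39 with the GC and length correction, and 0.118 and 0.0656 over 0 to 125 cGy. Over the 12581 genes it was -0.00434 and 0.00935 with the correction, and -0.15 and -0.0385 over 0 to 125 cGy. The correlation with GC content was -0.314 and -0.307 among the 39 and -0.412 and -0.400 among all. Prkdc, Rev3l, Atm and Trp53bp1, with transcripts of 12674, 10789, 10006 and 9621 bases, all rose with gamma rays. Brca2, of 10724 bases, had slopes of 0.34 and 0.27 that did not pass.

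**Figure D4:**
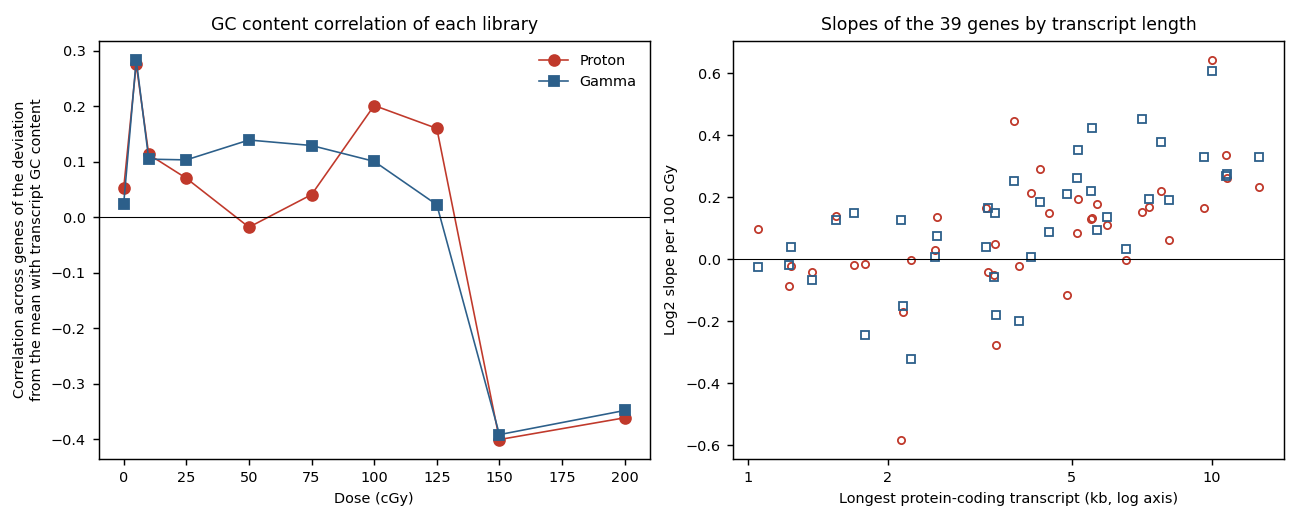
Left, for each mouse, the correlation across genes between the deviation from the gene's mean and transcript GC content, against dose in cGy. Right, the log2 slope per 100 cGy of each of the 39 genes against its longest protein-coding transcript on a log axis, for protons (circles) and gamma rays (squares). The 4 libraries at 150 and 200 cGy lie below -0.34 on the left, and on the right the genes with the longest transcripts have the higher slopes.

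The slopes of the radiation types were compared gene by gene. The difference between the proton and the gamma slope passed for 0 of the 39 genes and for 0% of all genes tested, with edgeR and with DESeq2. At an unadjusted edgeR p under 0.05 there were 2 (5.13%, against 1.94% of all genes), Parp1 and Parp2. With the GC and length correction there were 3, these and Ercc4 (7.69%, against 2.28%). Over 0 to 125 cGy there was 1, Parp1 (2.56%, against 2.32%). Proton minus gamma, the slope difference was 0.18 ± 0.08 for Parp1 (edgeR unadjusted p = 0.0343) and 0.23 ± 0.09 for Parp2 (edgeR unadjusted p = 0.0150), and both had an adjusted p of 1. The difference was 0.04 ± 0.19 for Atm, -0.15 ± 0.10 for Rad50, -0.16 ± 0.11 for Trp53bp1 and 0.11 ± 0.10 for Msh6. Genes called with 1 type of radiation were thus not shown to respond differently to the other.

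Levels at matched dose were compared with dose as a block. By edgeR 0 of the 39 genes and 0% of all genes passed, and 2 of the 39 had an unadjusted p under 0.05 (5.13%, against 7.86% of all genes). Trp53bp1 was lower in the proton mouse at 9 of 10 doses, the exception being 25 cGy, and also at 0 cGy, where neither mouse was irradiated and the counts were 312 and 354. Its mean count was 333 ± 48.7 (SD, 10 mice) with protons and 419 ± 77.7 with gamma rays, a log2 difference of -0.34 ± 0.07 (SE, edgeR unadjusted p = 0.000244, adjusted p = 0.172). It passed with DESeq2 (adjusted p = 0.0142, 0.533% of all genes) and with the GC and length correction (edgeR adjusted p = 0.0938, 0.0991% of all genes). It also passed with 1 surrogate variable (edgeR adjusted p = 0.0438), where the share of all genes was not counted. Over 0 to 125 cGy, the adjusted p was 0.382, the highest among these alternatives and those without the mice at 75 cGy or with a brown fat covariate. Brca2 was the other gene, with a log2 difference of 0.43 ± 0.19 (edgeR unadjusted p = 0.0369, adjusted p = 0.587).

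As levels, the 39 genes had a median in the lower part of the aortic transcriptome. Per kb of the longest protein-coding transcript they had a median of 21.4 counts, against 53.4 over 12581 genes tested. Ercc1, Parp1, Nbn, Polb, Parp2, Xrcc1, Apex1 and Xrcc6 lay higher, between the 55.5 and 72.6 percentile. The highest level was that of Ercc1, with 117 counts per kb, at the 72.6 percentile of tested genes, followed by Parp1 with 103 and Nbn with 100. The ranges of 1 SD around the mean overlapped between Ercc1 and Parp1, at 119 ± 7.77 (SD, 10 mice) and 107 ± 10.9 in the gamma mice, and between Parp1 and Nbn, at 98.3 ± 9.38 and 101 ± 6.62 in the proton mice. The lowest level was that of Brca2, with 1.30 counts per kb, preceded by Palb2 with 1.67, Chek1 with 2.15 and Blm with 2.16, and each of these overlapped its neighbour within 1 SD in both types. Among the genes of break sensing, Nbn was at 100 counts per kb, and its partners Rad50 and Mre11a at 26.1 and 14.9. Atm, at 4.63, was below Atr, at 16.2, and the groups of mice with these 2 genes did not overlap within 1 SD.

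**Figure D5:**
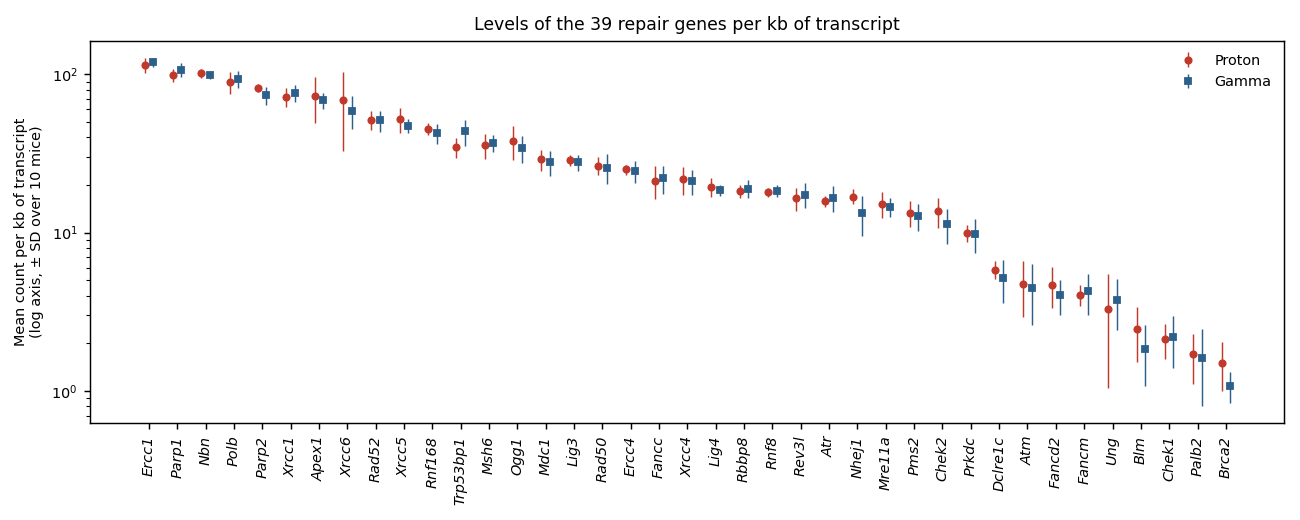
Mean count per kb of the longest protein-coding transcript (log axis) of each of the 39 genes, in order of level, with the SD over 10 mice for protons (circles) and gamma rays (squares). Levels run from 117 for Ercc1 to 1.30 for Brca2, and the wide proton bar of Xrcc6 includes the mouse at 75 cGy.

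Of 75 other genes of the same pathways, 71 were tested. With gamma rays 9 rose (12.7%, against 5.44% of all genes tested) and with protons 3 rose (4.23%, against 1.6%), the median slope being 0.06 and 0.04. Wee1, the kinase that restrains entry into mitosis, rose with both types, with slopes of 0.43 ± 0.11 with protons and 0.47 ± 0.11 with gamma rays (edgeR adjusted p = 0.0636 and 0.0264). Polk, a translesion polymerase, rose with both (0.46 ± 0.09 and 0.37 ± 0.09, edgeR adjusted p = 0.0219 and 0.0385). Mgmt, which takes alkyl groups off guanine, had the largest slopes of these genes. It had 10 counts at 0 and 41 at 200 cGy of protons, within 10 to 49 over all proton mice (median 32), and 11 and 37 with gamma rays, within 11 to 48 (median 23). Its slopes were 0.91 ± 0.23 and 0.84 ± 0.23 (edgeR adjusted p = 0.0647 and 0.0452). Wee1, Polk and Mgmt still passed in both types with the GC and length correction, where the slopes of Mgmt were 1.01 and 0.93, and did not pass over 0 to 125 cGy, where those of Mgmt were 1.46 and 1.15.

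With gamma rays the other risers were Topbp1, the activator of Atr (0.29), Rif1, a partner of Trp53bp1 (0.35), the helicase Wrn (0.36), the nuclease scaffold Slx4 (0.21), and Ercc5 and Ercc6 of nucleotide excision (0.30 and 0.23). Of these 6, Ercc5 kept its call with the GC and length correction (edgeR adjusted p = 0.0432), and the adjusted p of the others was 0.102 to 0.680. By pathway, and counting rises alone, where 5.44% of all genes rose, the genes that rose with gamma rays were 2 of 9 checkpoint genes, 1 of 6 of end joining, 1 of 13 of recombination, 1 of 9 Fanconi genes, 0 of 10 of base excision, 0 of 5 of mismatch repair, 2 of 11 of nucleotide excision and 2 of 8 of translesion synthesis and direct reversal.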

How the data were processed

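Aortic RNA of 20 mice was sequenced after polyA selection. Per the methods and the submitters' processing notes, the authors called bases with CASAVA 1.8.1, aligned stranded paired reads to mm9 with STAR 2.5.2a and resampled every library to 1 depth, which levels the totals and adds sampling noise to low genes. The deposited counts are whole numbers of sense-strand reads for each gene, with no further scaling found in the values. Coordinates, transcript lengths and GC content are from GENCODE M1 on the same assembly, in which all 21078 identifiers were found, and promoters from the RefSeq table of GRCm38.p6, which is not the build of the counts.

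The 13124 genes whose counts averaged 5 or more were tested with edgeR 4.0.16 (R 4.3.3), with TMM factors, the robust quasi-likelihood test and an intercept and a dose slope of its own for either type, and Benjamini-Hochberg adjustment with a threshold of 0.1. The rank test was an exact two-sided permutation of Spearman's rho over all orders of 10 doses, for each type. Types were also compared by the slope difference, and at matched dose with dose as a block. Alternatives used DESeq2 1.42.0, sva 3.50.0, other filters, dose scales and thresholds, spline offsets for GC content and length, 0 to 125 cGy, and each mouse left out. Scripts were tested on simulated data. Full values are given for members past a threshold in any test and for the member with the smallest slope p of each pathway and type, with related genes named where they rose. One result among the related genes is not reported here. The members and lists were chosen with earlier results of these data known. With 1 mouse per dose and type, p-values measure the scatter of single mice about a trend. Exons of 14 members overlap a gene on the opposite strand, which sense counts leave out, and 2 overlap one on the same strand.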

Additional observations from a re-analysis of the deposited data

Results flagged for a closer look

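Within each radiation type, the 39 genes were searched for a single mouse far from the other 9, by Dixon's ratio of the gap to the range at its 95% critical value. It marked 8 of 78 groups (10.26%), where chance gives about 1 in 20. The 10 mice of a group had different doses, so they are not replicates of 1 condition.

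Both Xrcc6 maxima were among them. The proton mouse at 75 cGy had 548 counts, the next highest proton mouse 237, and the gamma mouse at 100 cGy had 306, the next highest gamma mouse 216. Brown fat markers summed to 2593 and 999 CPM in these mice and white fat markers to 2707 and 1079. The part of the tissue mix in the Xrcc6 count was not tested. Ung, with 19 counts in the proton mouse at 75 cGy against at most 8 in the others, was the other gene marked in that mouse.

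Msh6 had 216 counts in the proton mouse at 200 cGy, the next highest being 164, and its proton slope no longer passed without that mouse. Ogg1 had 92 counts in the proton mouse at 125 cGy, the next highest being 63. Blm had 18 counts in the gamma mouse at 150 cGy, the next highest being 11. Chek2 had 40 counts in the gamma mouse at 0 cGy, the next highest being 27. Atr was low in the proton mouse at 5 cGy, with 103 counts, the next lowest being 122.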

How the results depend on the processing

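Counts are given as genes that rose with protons, rose with gamma rays and fell with gamma rays, 2, 8 and 2 as reported. They were 1, 5 and 2 with a minimum mean count of 50, which leaves Atm, Dclre1c and Fancm out, 1, 2 and 1 with the GC and length correction, and 0, 5 and 2 with dose as a rank. They were 0, 0 and 0 over 0 to 125 cGy, with log2(dose + 1), and with the GC and length correction over 0 to 125 cGy, the last added after seeing the data. At a threshold of 0.05 they were 1, 5 and 1. The cause of these shifts was not tested, beyond the fewer genes or mice that some of the settings leave. The share of all genes called was not counted with the minimum of 50, with either dose scale or at the threshold of 0.05. Nor was it counted with the correction over 0 to 125 cGy, so those counts cannot be set against it. At an unadjusted p under 0.05, 7 genes had a proton slope above 0 and 2 below 0 (9.78% and 3.52% of all genes). The median slope was 0.0184 and 0.0724 with the correction and 0.0572 and 0.0695 over 0 to 125 cGy. Fancm reversed with gamma rays over 0 to 125 cGy, to -0.0473, and to -0.0431 with the correction in that range. The 12 called slopes all passed without TMM, with 1 surrogate variable, with a brown fat covariate and without both mice at 75 cGy. With DESeq2, and with a minimum mean count of 1, Fancm alone was lost.

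With each mouse left out in turn, 0 to 3 genes rose and 0 fell with protons, 1 to 8 rose and 0 to 2 fell with gamma rays, and the median slopes were 0.07 to 0.13 and 0.10 to 0.18. Without the gamma mouse at 200 cGy 1 gene rose and 0 fell, without that at 150 cGy 3 rose and 0 fell, and without the proton mouse at 200 cGy 0 rose with protons. Without the proton mouse at 5, 10 or 150 cGy, 1 rose with protons. The share of all genes called was not counted with a mouse left out, nor in the other forms of the rank test that follow. The rank test called 2 genes up with gamma rays as reported, 1 with a minimum mean count of 1 or 50, without both mice at 75 cGy or at a threshold of 0.05, and 0 over 0 to 125 cGy or with TMM-scaled counts. At an unadjusted p under 0.05 it had 5 genes with rho above 0 and 1 below 0 with protons, and 9 above and 3 below with gamma rays (6.67% and 15.7% of all genes in either direction). At matched dose 1 gene, Trp53bp1, passed with DESeq2, 1 surrogate variable or the correction, and 2 genes had an unadjusted p under 0.05, as did 2 for the slope difference. Only the dose joins a proton and a gamma mouse. With dose as a replicate block the slope difference had 0 calls, and without the replicate block the matched comparison had 0, as in the reported fits and with each mouse or pair left out. One mouse per dose, genes with few counts, and highest doses that differ in GC correlation limit these slopes.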
